A study of Mus musculus with 40 samples.

Results

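The metalloproteinases and their inhibitors were taken as the genes whose symbol begins with Mmp, Adamts, Adamtsl, Adam or Timp followed by a digit. Of the 21204 genes tested, 62 were such members: 17 matrix metalloproteinases (MMPs), 19 ADAMTS proteases, 5 ADAMTS-like proteins, 17 ADAMs and 4 tissue inhibitors (TIMPs). The full table held 84 genes of these families, and the 22 outside the authors' filtered table were not tested. Bulk RNAseq was performed on whole pieces of rib tissue from mice of either age, immature or mature, at baseline and on day 0, 2, 5 or 14 after the resection (dpr, days post-resection), to compare the repair of a large rib defect between the ages. All mice were wild type and, per the study's methods, female C57BL/6. By the labels, immature mice were 7 weeks and mature mice more than 10 months old. The study defines baseline as the state before resection, whereas the labels describe every piece as taken after it. No agent or transgene separates the groups. Each group held n = 4 libraries, except mature mice at 5dpr with n = 3. The labels number the libraries without tying them to separate animals, so that p-values measure the spread between these libraries.

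MMPs are zinc-dependent enzymes that cut collagens and other proteins of the extracellular matrix, and most are secreted as inactive proenzymes. TIMPs bind their active sites, whereas ADAMs are membrane-bound enzymes that release growth factors, cytokines and receptors from the cell surface. ADAMTS enzymes are secreted and act on proteoglycans and procollagens, and ADAMTS-like proteins resemble them but lack the protease domain. In a bone callus, these enzymes clear provisional and cartilage matrix and open it to vessels and osteoclasts.

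The pieces held muscle, marrow and bone, and the levels of muscle genes shifted strongly with stage. The summed level of 12 skeletal muscle genes in CPM (counts scaled to the library total) was 52805 to 71780 at baseline, 59053 to 125595 at 0dpr and 12028 to 17594 at 2dpr in immature mice. It was 28337 to 60513, 66273 to 138492 and 8573 to 18067 CPM in mature mice. A fall in a gene's level in such pieces can come from fewer cells of a type, from less RNA per cell or from a larger share of other RNA, and these cannot be told apart. Total counts ranged from 6057756 to 21537070 per library (median 9087417). One library stood apart. Mature 2dpr replicate 3 had 14214 genes with at least 1 read, against 19068 to 20823 in the other 38 libraries, and 13 members at 0 reads, against 0 to 4 in the others.

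From baseline to 14dpr, the immature mice had a rise in 35 members and a fall in 5, the mature mice a rise in 37 and a fall in 5 (edgeR's quasi-likelihood test with Benjamini-Hochberg adjusted p under 0.05 over all genes tested). Among all genes tested, the shares were 16.4% and 15.1% in immature and 17.1% and 16.4% in mature mice. The median log2 fold change of the members was 1.01 in immature and 1.25 in mature mice, against -0.04 and -0.03 over all genes. Both ages had a rise in 31 members and a fall in 4, the latter being Timp3, Timp4, Mmp8 and Mmp25. No member had opposite calls at the ages. Shared and opposite calls were not counted over all genes, so that no background is given for them. The 15 members that passed at neither age included Adam10 and 4 of the 5 ADAMTS-like genes. The 5 members Adam1a, Adam4, Adam11, Adam21 and Adamts13 passed in none of the 10 comparisons between stages.

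**Figure D1:**
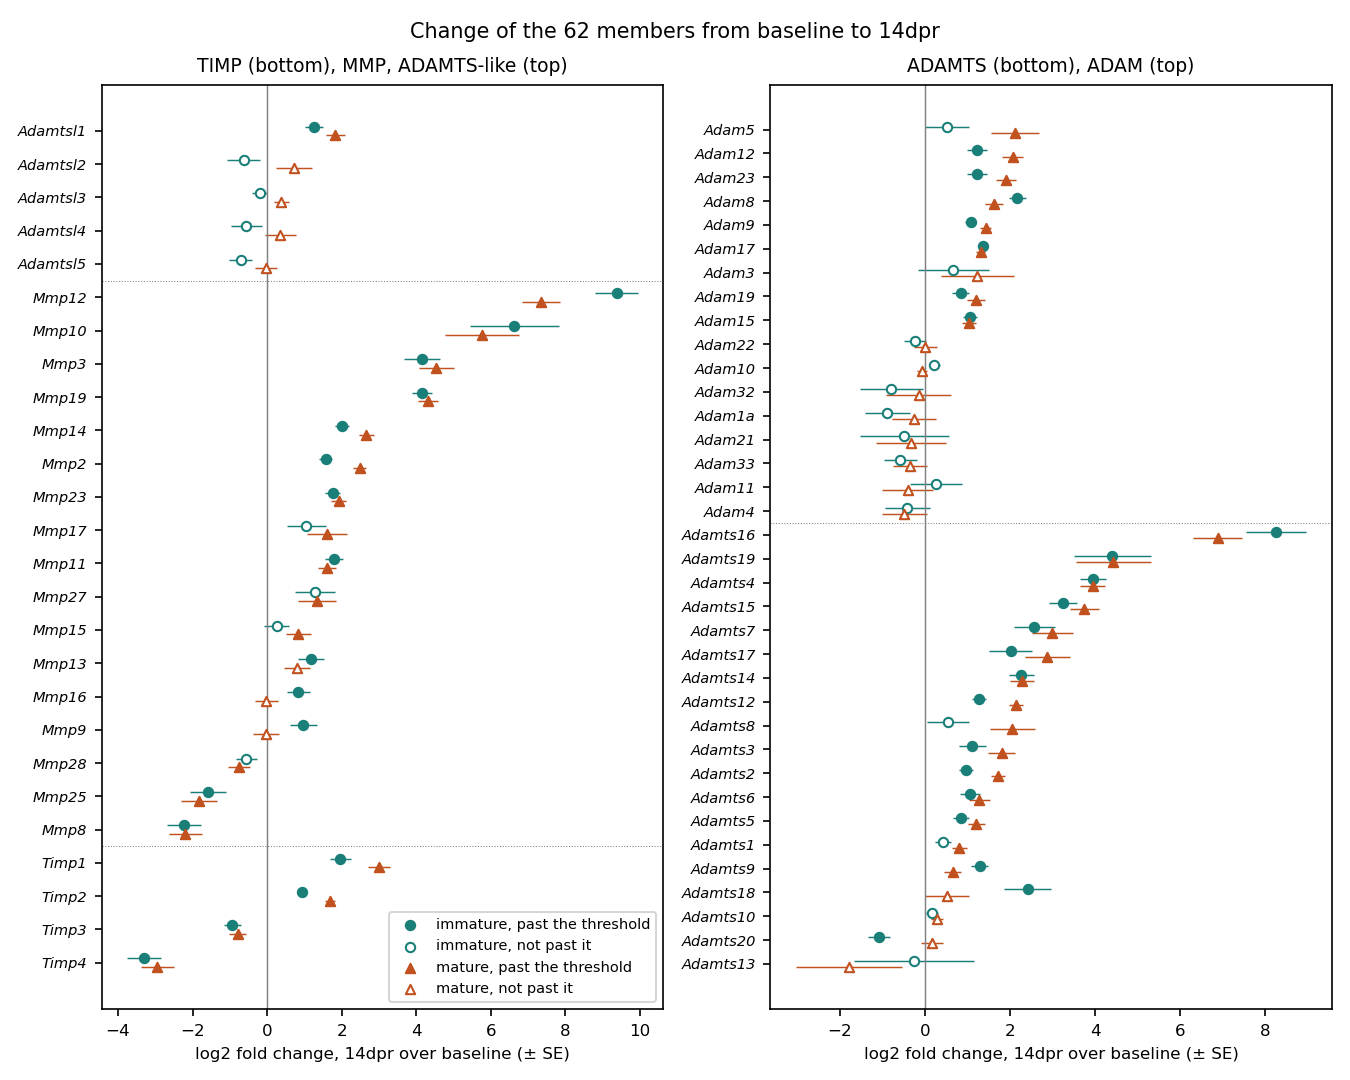
Log2 fold change of each of the 62 members from baseline to 14dpr (x axis, with standard error) in immature (circles) and mature mice (triangles). Filled symbols passed an adjusted p of 0.05, and dotted lines divide the families. Mmp12 and Adamts16 lie farthest to the right at both ages, and Timp4 farthest to the left, while Adamts16 and Mmp10 rest on 0 to 3 reads per library at baseline.

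The change was spread unequally over the stages. From baseline to 0dpr in immature mice, rises were called in 9 members and falls in 5, where 5.98% of all genes rose and 4.66% fell. The mature mice had 7 rises and 12 falls, where 11.9% of all genes rose and 10.6% fell. From 0 to 2dpr, there were 19 rises and 15 falls among the members in immature mice (21.8% and 22.2% of all genes) against 26 rises and 16 falls in mature mice (22.7% and 24.9% of all genes). The interval from 2 to 5dpr had 15 rises and 2 falls in immature mice (4.37% and 3.68% of all genes), and 20 rises and 5 falls in mature mice (8.16% and 6.38% of all genes). That from 5 to 14dpr had 7 rises and 1 fall in immature mice (1.73% and 1.45% of all genes), and 11 rises and 1 fall in mature mice (1.95% and 2.23% of all genes). Hence the rises outnumbered the falls in both late intervals, while both directions were common from 0 to 2dpr, among all genes as well as among the members. The mean log2 CPM of 23 members in immature and of 27 members in mature mice was highest at 14dpr, and 43 members had their highest mean at the same stage at both ages. The stage of the highest mean was not taken for all genes, so that these counts have no background.

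With a skeletal muscle score as a covariate, the calls from 0 to 2dpr decreased from 34 to 14 members in immature and from 42 to 12 in mature mice, and those from baseline to 0dpr from 14 to 7 and from 19 to 1. Over all genes tested, the same score took the calls from 0 to 2dpr from 9324 to 1848 in immature and from 10100 to 1724 in mature mice, and those from baseline to 0dpr from 2257 to 1101 and from 4775 to 591. The summed level of the muscle genes did not overlap between 0 and 2dpr or between baseline and 14dpr at either age. In mature mice it did not overlap between baseline and 0dpr either. Over these intervals, a fit with the score cannot tell muscle and stage apart. A call can also be lost through a larger error alone. Calls kept or lost with the score are therefore given as a description, and the part of muscle in the changes was not tested. Named members whose calls were lost with that score included, at 0dpr against baseline, Mmp3, Timp1, Timp3 and Adam8 in immature mice and Mmp2, Mmp8, Mmp9, Timp1, Adamts1 and Adamts8 in mature mice. From 0 to 2dpr they included Adam10, Adam19, Adamts14 and Mmp10 at both ages, Mmp3 in immature and Mmp9 in mature mice, and from baseline to 14dpr Mmp9, Mmp13, Mmp16, Mmp25 and Adamts2 in immature mice. Without mature 2dpr replicate 3, 24 members rose and 15 fell from 0 to 2dpr in mature mice, and 20 rose and 3 fell from 2 to 5dpr. The shares over all genes without that library are not given, so that these counts have no background. The testis-type genes Adam3 and Adam5 were among the calls lost, with adjusted p = 0.406 and 0.510 for 2 against 0dpr without that library.

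Levels were compared between genes as CPM per kilobase of exon. At baseline, Mmp9 was the highest member per kilobase at both ages, at 122 ± 24.1 (SD, n = 4) in immature and 130 ± 26.6 (SD, n = 4) in mature mice. Mmp2 followed at 109 ± 13.7 and Mmp13 at 108 ± 19.4 in immature mice, and all 3 overlapped in range, as did Mmp9 and the next gene, Mmp8, in mature mice. Timp1 was the highest at 2dpr, at 232 ± 52.3 in immature and 244 ± 96.6 in mature mice, and its lowest library lay above every library of the next gene in that order. At 14dpr, Mmp2 had the highest mean, at 326 ± 30.8 in immature and 396 ± 71.4 CPM per kilobase in mature mice. In immature mice, Mmp13 and Mmp9 overlapped it in range, and the highest Mmp9 library, at 389, lay above every Mmp2 library. In mature mice, the next gene, Timp1, did not overlap it.

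The 4 inhibitors moved in different directions. SE denotes the standard error of a fitted log2 fold change, and where 2 values follow each other, the first is for immature and the second for mature mice. TIMP1 binds most secreted MMPs, TIMP2 takes part with MMP14 in the activation of pro-MMP2, TIMP3 is held in the matrix and also inhibits ADAM17 and several ADAMTS enzymes, and TIMP4 is known from muscle and fat. Timp1 (ENSMUSG00000001131, chrX:20870166-20874735) was at 32.1, 29.2, 10.7 and 21.6 CPM at 0dpr and at 179, 178, 275 and 192 CPM at 2dpr in immature mice. In mature mice it was at 12.7, 6.24, 6.32 and 12.6 CPM and at 318, 229.7, 109 and 209 CPM. All libraries at 2dpr lay above all at 0dpr at both ages. The log2 fold change of Timp1 was 3.15 (SE 0.30, adjusted p = 1.21e-10) in immature and 4.53 (SE 0.32, adjusted p = 1.13e-13) in mature mice. Before that, Timp1 fell from baseline to 0dpr, with log2 fold changes of -0.94 (SE 0.28, adjusted p = 0.0295) and -1.03 (SE 0.30, adjusted p = 0.0128). Without immature 0dpr replicate 3, its log2 fold change from baseline was -0.66, and 3 of the 8 fits that left out a replicate still called it in immature mice. At 14dpr, Timp1 stayed above baseline, by log2 fold changes of 1.97 and 3.00 (adjusted p = 1.01e-06 and 5.82e-10). The gene lies within an intron of Syn1 on the other strand, and the sources used here do not say whether the counting used strand.

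Timp2 rose late. It was at 251, 234, 175 and 207 CPM at 2dpr and at 560.0, 510.2, 589.6 and 492 CPM at 14dpr in immature mice. In mature mice the values were 189, 169.9, 198 and 195 CPM and 688, 584, 682 and 579 CPM. The rise from 2 to 5dpr had a log2 fold change of 0.91 (SE 0.14, adjusted p = 4.27e-05) and 1.05 (SE 0.15, adjusted p = 4.91e-06). From 5 to 14dpr, it was 0.70 (SE 0.15, adjusted p = 0.00451) in mature mice, while the value in immature mice, 0.41 (SE 0.14, adjusted p = 0.108), did not pass.

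Timp3 and Timp4 were the inhibitors that were lower at 14dpr than at baseline. Timp3 was at 632, 545, 604 and 352 CPM at baseline, 141, 105, 98.8 and 160.4 CPM at 2dpr and 228, 265, 313 and 309 CPM at 14dpr in immature mice. The mature libraries were at 395, 377, 364 and 503, at 93.4, 83.8, 173 and 64.9 and at 232, 207, 249 and 258 CPM. Every library at 2dpr and at 14dpr lay below every baseline library. On the log2 scale, the change from 0 to 2dpr was -1.34 (SE 0.23, adjusted p = 8.33e-06) and -1.63 (SE 0.23, adjusted p = 2.5e-07), and both remained past the threshold with the muscle score as a covariate. Timp4 was at 19.0, 18.5, 21.6 and 40.1 CPM at 0dpr and 2.09, 1.91, 1.17 and 2.44 CPM at 2dpr in immature mice. Libraries of mature mice were correspondingly at 36.9, 38.9, 42.0 and 31.4 and at 1.57, 3.38, 5.55 and 3.42 CPM. Expressed as log2, the fold change was -3.71 (SE 0.45, adjusted p = 2.72e-08) and -3.43 (SE 0.43, adjusted p = 2.79e-08). With the muscle score as a covariate, the size in mature mice was -2.85 and the call was lost, while that in immature mice was kept. The summed level of 3 adipocyte genes also moved, with ranges of 554 to 871 CPM at 0dpr and 170.2 to 266 CPM at 2dpr in immature mice, and its part in the Timp4 values was not tested.

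**Figure D2:**
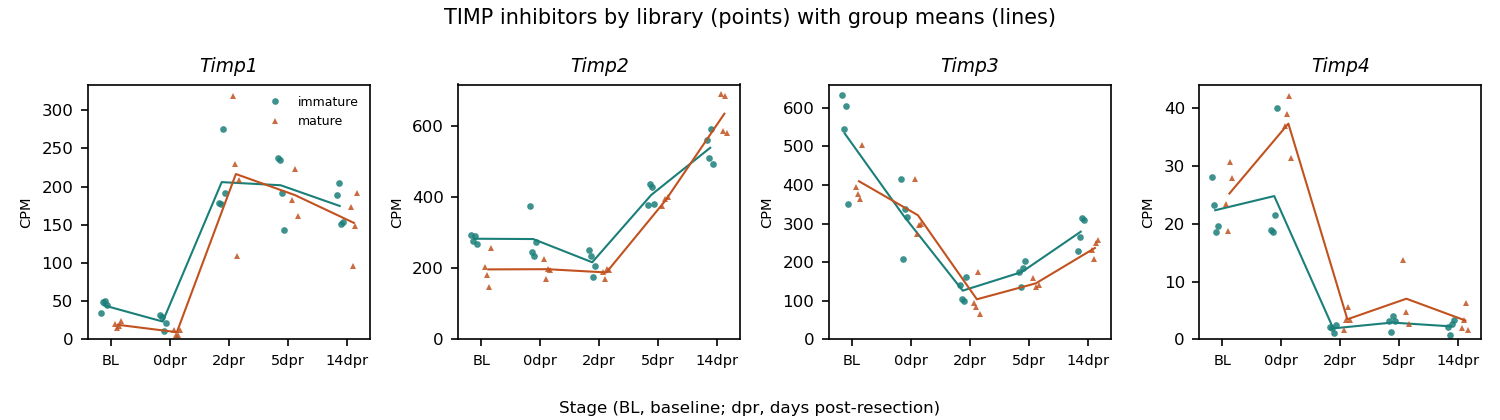
Level of the 4 TIMP genes in CPM (y axis) in each library of immature (circles) and mature mice (triangles) at baseline (BL) and at 0, 2, 5, and 14dpr (x axis), with lines through the group means. Timp1 is higher from 2dpr on, Timp2 is highest at 14dpr, and Timp3 and Timp4 are lower at 2dpr than at 0dpr.

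A run of 6 MMP genes lies on chromosome 9, at chr9:7272514-7581885 of GRCm38, namely Mmp13, Mmp12, Mmp3, Mmp10, Mmp8 and Mmp27. Promoter windows from 250 bases before to 50 after the start site, from RefSeq (GRCm38.p6), were matched for 39 of the 62 members. They were searched on both strands for the AP-1 motif TGAGTCA, whose reverse complement is TGACTCA. AP-1 is a dimer of FOS and JUN proteins, and this motif is known from the promoters of several MMP genes. It was in the windows of 5 of the 39 members (12.8%) and of 5.95% of all 27025 genes with a window, and 4 of the 5 are in the cluster. A match is a description of these letters and does not show a bound site. Some genes have several start sites in RefSeq, each with a window, and counted by window the shares were 5 of 43 (11.6%) and 5.20% of 32851. For Mmp12, 1 of 2 windows matched, and the one nearest the start of the gene in the annotation did not. For Adam19, 1 of 3 windows matched. The windows of Mmp8 and Mmp27 held no match. Of the cluster genes with a match, Mmp3, Mmp10 and Mmp12 rose from 0 to 2dpr at both ages. Mmp13 was not called, at -0.65 (adjusted p = 0.134) in immature and 0.55 (adjusted p = 0.205) in mature mice. Of those without a match, Mmp27 rose and Mmp8 was not called, and a link of the motif with these changes was not tested. The stretches around the 5 matches are printed. All stretches are on the plus strand, capitals mark the motif, and distances are to the start site of the window that matched.
Mmp13, chr9:7272444-7272513, motif starting 35 bases before the start site: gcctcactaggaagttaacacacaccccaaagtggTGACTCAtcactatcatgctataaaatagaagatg
Mmp12, chr9:7347295-7347371, motif starting 44 bases before the start site: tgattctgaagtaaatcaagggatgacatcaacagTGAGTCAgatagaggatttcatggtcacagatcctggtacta
Mmp3, chr9:7445741-7445817, motif starting 46 bases before the start site: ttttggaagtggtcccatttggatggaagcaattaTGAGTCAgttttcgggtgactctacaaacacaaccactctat
Mmp10, chr9:7502244-7502320, motif starting 63 bases before the start site: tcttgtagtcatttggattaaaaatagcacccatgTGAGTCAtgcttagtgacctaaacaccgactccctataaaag
Adam19, chr11:46055818-46055894, motif starting 131 bases before the start site: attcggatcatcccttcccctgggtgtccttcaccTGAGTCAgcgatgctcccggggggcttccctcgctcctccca

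Among the genes with that motif, Mmp12 (ENSMUSG00000049723, chr9:7344381-7369499), the macrophage elastase, had the largest rise to 14dpr at both ages. It was at 0.896, 1.36, 1.00 and 0.696 CPM at 0dpr, 80.9, 85.1, 99.9 and 142 CPM at 2dpr and 281, 405, 549.6 and 631 CPM at 14dpr in immature mice. In mature mice it was at 0.471, 1.87, 1.33 and 7.22, at 142, 87.9, 83.8 and 156 and at 183, 220.1, 279.6 and 428 CPM. The groups did not overlap. The log2 fold change from 0 to 2dpr was 6.66 (SE 0.53, adjusted p = 3.18e-12) and 5.44 (SE 0.48, adjusted p = 1.24e-11), and from baseline to 14dpr it was 9.38 (SE 0.57, adjusted p = 2.61e-14) and 7.34 (SE 0.51, adjusted p = 2.58e-13). All 7 macrophage genes of the marker list rose from 0 to 2dpr at both ages, with a summed level of 458 to 680 CPM at 0dpr and 2812 to 3767 CPM at 2dpr in immature mice. Their summed level was 2055 to 2595 CPM at 14dpr, where every library was higher in Mmp12 than those at 2dpr. The part of macrophage number in the Mmp12 values was not tested.

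Mmp3, which encodes stromelysin-1, was higher at 14dpr than at baseline. It was at 1.94, 2.99, 4.09 and 2.01 CPM at baseline, 5.68, 12.8, 9.10 and 8.35 CPM at 0dpr and 56.5, 41.8, 56.2 and 42.4 CPM at 14dpr in immature mice. The mature libraries were at 5.24, 3.77, 2.46 and 2.36, at 2.04, 6.24, 8.09 and 10.1 and at 51.5, 126, 70.5 and 75.7 CPM. The rise to 0dpr passed in immature mice, at 1.71 (SE 0.47, adjusted p = 0.0185), and not in mature mice, at 0.95 (SE 0.47, adjusted p = 0.144), and the difference between these was not tested. From 0 to 2dpr, the log2 fold change was 1.15 (SE 0.42, adjusted p = 0.0248) and 2.60 (SE 0.43, adjusted p = 5.43e-06). From 2 to 5dpr, it was -0.25 (SE 0.40, adjusted p = 0.820) and -0.87 (SE 0.43, adjusted p = 0.186), neither past the threshold. From 5 to 14dpr, it was 1.54 (SE 0.40, adjusted p = 0.0255) and 1.86 (SE 0.44, adjusted p = 0.0110). Fits that left out a replicate kept these calls in 3 of 8 and 4 of 7, and that from 0 to 2dpr in immature mice in 3 of 8. The other stromelysins rose as well. Mmp10 had 0, 0, 0 and 0 reads at baseline, 1, 7, 8 and 11 at 2dpr and 8, 10, 15 and 11 at 14dpr in immature mice. In mature mice it had 0, 1, 0 and 0, 16, 13, 0 and 15 and 21, 26, 8 and 15 reads, and no fold is given for counts this low. Mmp11, which is often found in stromal cells, was at 3.25 to 7.42 CPM at baseline and 16.3 to 19.2 CPM at 14dpr in immature mice. Its log2 fold change was 1.79 (SE 0.24, adjusted p = 2.61e-07) in immature and 1.60 (SE 0.24, adjusted p = 1.53e-06) in mature mice.

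The collagenases of the cluster, which cut fibrillar collagen, moved in opposite directions against baseline. Mmp13 (ENSMUSG00000050578, chr9:7272514-7283331), a collagenase of hypertrophic chondrocytes and osteoblasts, was at 269, 332, 331 and 226 CPM at baseline, 113, 156, 108 and 145 CPM at 5dpr and 394, 967, 407 and 849 CPM at 14dpr in immature mice. Libraries of mature mice were correspondingly at 154, 207, 235 and 131, at 65.8, 70.5 and 78.0 and at 216, 394, 336 and 321 CPM. The rise from 5 to 14dpr had a log2 fold change of 2.32 (SE 0.37, adjusted p = 0.000137) and 2.15 (SE 0.41, adjusted p = 0.00120), with no overlap between the stages. Against baseline, the 14dpr level passed in immature mice, at 1.18 (SE 0.36, adjusted p = 0.0101), and not in mature mice, at 0.80 (SE 0.35, adjusted p = 0.0793), and the difference between these was not tested. With a covariate for muscle, the first of these was 0.31 and no longer called. In immature mice at 14dpr, replicates 2 and 4 lay far above replicates 1 and 3 for both Mmp13 and Mmp9, and the summed level of 6 osteoclast genes ranged from 1735 to 4296 CPM there. The summed level of 6 osteoblast genes was 304 to 615 CPM at 5dpr and 1019 to 2356 CPM at 14dpr in immature mice, and 117 to 256 and 441 to 932 CPM in mature mice, so that it did not overlap between the ages at 14dpr. The part of osteoblasts and chondrocytes in the Mmp13 values was not tested.

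Mmp8 (ENSMUSG00000005800, chr9:7558456-7568485), the neutrophil collagenase, fell. It was at 217, 119, 128 and 152 CPM at baseline and 38.7, 83.1, 19.8 and 40.5 CPM at 0dpr in immature mice, and at 159, 154, 277 and 135 and 45.8, 124, 41.7 and 84.7 CPM in mature mice. On the log2 scale, the change was -1.76 (SE 0.44, adjusted p = 0.0103) and -1.29 (SE 0.43, adjusted p = 0.0285). From baseline to 14dpr, it was -2.23 (SE 0.45, adjusted p = 0.000174) and -2.20 (SE 0.45, adjusted p = 0.000180). Mmp25, a membrane-anchored MMP of neutrophils, also fell from baseline to 14dpr, at -1.58 (SE 0.49, adjusted p = 0.0119) and -1.82 (SE 0.48, adjusted p = 0.00311). All 8 neutrophil genes of the marker list fell over the same interval at both ages. Their summed level was 6861 to 11290 CPM at baseline and 1463 to 3114 CPM at 14dpr in immature mice, and 8404 to 21344 and 1174 to 4540 CPM in mature mice. The part of neutrophil number in the Mmp8 and Mmp25 values was not tested.

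Mmp27, the last gene of the cluster, peaked at 2dpr. Its level was 6.39, 8.33, 7.12 and 4.88 CPM at 2dpr in immature and 9.09, 6.24, 5.77 and 9.71 CPM in mature mice, and in immature mice these lay above every library of the other stages, while in mature mice 1 library at 5dpr overlapped them. Expressed as log2, the fold change from 0 to 2dpr was 5.06 (SE 0.66, adjusted p = 8.02e-08) and 3.30 (SE 0.55, adjusted p = 5.18e-06), from 3, 2, 0 and 1 reads at 0dpr in immature and 10, 11, 1 and 1 in mature mice. With so few reads at 0dpr, the sizes of these folds are uncertain.

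The gelatinases, which act on denatured collagen and basement membrane, rose from 5 to 14dpr. Mmp2 (ENSMUSG00000031740, chr8:92827291-92853420) was at 200.1, 165, 185 and 197 CPM at 2dpr, 596, 737, 694 and 553 CPM at 5dpr and 1228, 1075, 1114 and 977 CPM at 14dpr in immature mice. In mature mice it was at 135, 126, 129 and 137, at 429.7, 437 and 471 and at 1604, 1043, 1437 and 1257 CPM. No library overlapped between these stages at either age. The log2 fold change from 2 to 5dpr was 1.79 (SE 0.17, adjusted p = 1.07e-08) and 1.76 (SE 0.18, adjusted p = 1.51e-08), and from 5 to 14dpr it was 0.77 (SE 0.17, adjusted p = 0.00539) and 1.58 (SE 0.19, adjusted p = 1.33e-06). These calls held in every fit that left out a replicate. Fibroblast genes moved over the same stages, with a summed level of 1074 to 1227 CPM at 2dpr and 3437 to 4609 CPM at 14dpr in immature mice over 5 genes, and their part in the Mmp2 values was not tested.

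Mmp9 (ENSMUSG00000017737, chr2:164940780-164955850), made by osteoclasts and neutrophils, first fell and then rose. It was at 538, 423, 434 and 330.3 CPM at baseline, 122, 86.2, 125 and 175 CPM at 2dpr and 471, 983, 561 and 1375 CPM at 14dpr in immature mice. The mature libraries were at 491, 519, 514 and 321, at 91.4, 47.3, 129 and 133 and at 372, 458, 465 and 512 CPM. From baseline to 0dpr, the log2 fold change was -1.32 (SE 0.36, adjusted p = 0.0175) and -1.20 (SE 0.36, adjusted p = 0.0140). From 5 to 14dpr, it was 1.73 (SE 0.36, adjusted p = 0.00363) and 1.78 (SE 0.40, adjusted p = 0.00728). Of the 6 osteoclast genes, 5 rose in immature and 3 in mature mice over that interval, with a summed level of 574 to 1090 CPM at 5dpr and 1735 to 4296 CPM at 14dpr in immature mice. Their summed level in mature mice was 334 to 632 and 1250 to 1866 CPM, and their part in the Mmp9 values was not tested.

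The membrane-type MMPs were led by Mmp14 (ENSMUSG00000000957, chr14:54431612-54445364), which activates pro-MMP2 at the cell surface. It was at 96.5, 92.8, 141 and 107 CPM at baseline, 201, 181, 225 and 236 CPM at 2dpr and 459.9, 436, 446 and 417 CPM at 14dpr in immature mice. Libraries of mature mice were correspondingly at 85.4, 88.9, 63.5 and 74.9, at 152, 180.2, 156 and 166 and at 551, 425, 559 and 446 CPM. The rise was stepwise, with log2 fold changes of 0.87 (SE 0.19, adjusted p = 0.000302) and 1.57 (SE 0.19, adjusted p = 2.25e-08) from 0 to 2dpr and 1.06 (SE 0.19, adjusted p = 0.000284) and 1.08 (SE 0.20, adjusted p = 0.000268) from 2 to 5dpr. The first pair was no longer called with the muscle score as a covariate. Mmp16, another membrane-type enzyme, fell in mature mice, which ranged over 14.9 to 28.5 CPM at baseline and 7.84 to 10.1 CPM at 0dpr, at -1.35 (SE 0.33, adjusted p = 0.00284). It then rose from 2 to 5dpr at both ages, by 1.41 (SE 0.33, adjusted p = 0.00430) and 1.12 (SE 0.36, adjusted p = 0.0293). Mmp15 rose from baseline to 0dpr in mature mice, by 1.38 (SE 0.33, adjusted p = 0.00280). In immature mice, its value was 0.97 (SE 0.33, adjusted p = 0.0516), which passed without mature 2dpr replicate 3 in the fit (adjusted p = 0.00350). In mature mice, the muscle score as a covariate removed this call and that of Mmp16 at 0dpr. The mature call of Mmp16 from 2 to 5dpr was kept in 4 of 7 fits that left out a replicate. Mmp17 passed only from baseline to 14dpr in mature mice, at 1.60 (SE 0.55, adjusted p = 0.0207).

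Of the remaining MMPs, Mmp19, an enzyme of basement membrane and monocyte-lineage cells, rose early and kept its level. It was at 34.1, 19.4, 26.3 and 23.6 CPM at 0dpr and 191, 271, 321 and 285 CPM at 2dpr in immature mice, and at 18.7, 16.5, 14.7 and 20.1 and 336, 280.1, 315 and 160.4 CPM in mature mice. On the log2 scale, the change was 3.37 (SE 0.25, adjusted p = 5.5e-13) and 3.96 (SE 0.26, adjusted p = 1.68e-14), and no later step passed at either age. For Mmp19, all libraries at 2dpr lay above those at 0dpr. Mmp23 rose from 0 to 2dpr by 1.03 (SE 0.20, adjusted p = 6.43e-05) in immature and 0.49 (SE 0.20, adjusted p = 0.0468) in mature mice. The mature call was kept in 1 of 8 fits that left out a replicate. Its rise from 2 to 5dpr was 0.84 (SE 0.19, adjusted p = 0.00385) and 1.98 (SE 0.21, adjusted p = 2.14e-08). Mmp28 fell from 0 to 2dpr, at -0.91 (SE 0.29, adjusted p = 0.0107) and -1.27 (SE 0.29, adjusted p = 0.000465).

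**Figure D3:**
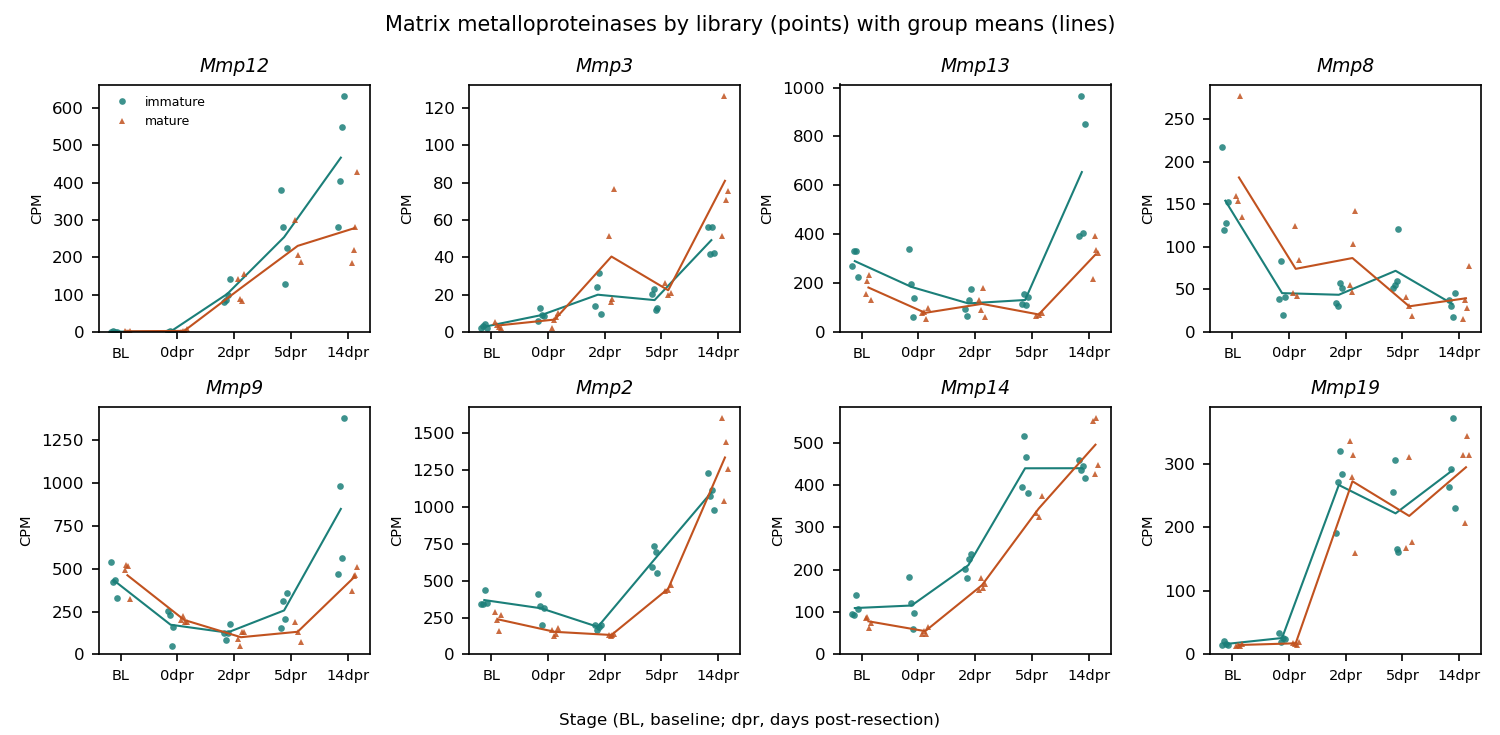
Level of 8 MMP genes in CPM (y axis) in each library of immature (circles) and mature mice (triangles) at baseline (BL) and at 0, 2, 5, and 14dpr (x axis), with lines through the group means. Mmp12 and Mmp19 are higher from 2dpr on, Mmp2 and Mmp14 are higher at 5 and 14dpr than at 2dpr, Mmp8 is highest at baseline, and Mmp9 and Mmp13 dip before 14dpr.

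Of the 8 shedding ADAMs, 7 rose and 1 fell from 0 to 2dpr at both ages, the one that fell being Adam33, over an interval in which 21.8% and 22.2% of all genes rose and fell in immature and 22.7% and 24.9% in mature mice. With the muscle score, Adam10, Adam12 and Adam19 were not called at either age, nor Adam33 in mature mice. The immature call of Adam33 was kept in 2 of 8 fits that left out a replicate. Adam8 (ENSMUSG00000025473, chr7:139978932-139992562), found on leukocytes and osteoclasts, was at 33.5, 31.2, 14.3 and 23.0 CPM at 0dpr and 305, 280.4, 384 and 342 CPM at 2dpr in immature mice. In mature mice it was at 18.0, 28.2, 16.7 and 27.9 and 420.3, 511, 326 and 508 CPM. Expressed as log2, the fold change was 3.69 (SE 0.22, adjusted p = 4.86e-15) and 4.28 (SE 0.23, adjusted p = 1.78e-16), after a fall from baseline to 0dpr, at -0.75 (SE 0.21, adjusted p = 0.0196) and -1.56 (SE 0.21, adjusted p = 2.06e-05). From 2 to 5dpr it fell again, at -0.94 (SE 0.20, adjusted p = 0.00202) and -0.88 (SE 0.22, adjusted p = 0.00485). No library at 2dpr overlapped those at 0dpr. The macrophage genes given above moved with Adam8 from 0 to 2dpr, and their part was not tested.

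Adam17 (ENSMUSG00000052593, chr12:21323509-21373632), which releases tumor necrosis factor, rose with little spread. It was at 71.0, 75.6, 85.5 and 67.9 CPM at 0dpr and 176, 192, 227 and 199 CPM at 2dpr in immature mice, and at 60.9, 75.5, 62.6 and 71.1 and 234, 221, 189 and 198 CPM in mature mice. The log2 fold change was 1.40 (SE 0.11, adjusted p = 1.45e-12) and 1.64 (SE 0.11, adjusted p = 2.64e-14), and the calls were kept with the muscle score as a covariate. Adam10, which cuts Notch receptors, rose less, by 0.77 (SE 0.13, adjusted p = 5.33e-06) and 0.88 (SE 0.13, adjusted p = 4.18e-07), and did not differ past the threshold between baseline and 14dpr. Adam9 rose over 0 to 2dpr by 1.17 (SE 0.12, adjusted p = 1.04e-09) and 1.52 (SE 0.12, adjusted p = 2.17e-12), and Adam15 by 1.15 (SE 0.17, adjusted p = 5.29e-07) and 1.23 (SE 0.17, adjusted p = 1.28e-07). Adam12 and Adam19, the meltrins, are known from muscle and bone. Adam12 was at 73.8, 61.3, 26.8 and 40.9 CPM at 0dpr and 211, 267, 293 and 215 CPM at 5dpr in immature mice, and at 37.3, 23.3, 18.8 and 30.0 and 218, 212 and 239.8 CPM in mature mice. It rose in both steps between, with log2 fold changes of 1.47 (SE 0.24, adjusted p = 6.09e-06) and 2.10 (SE 0.25, adjusted p = 1.13e-08) to 2dpr and of 0.82 and 0.94 to 5dpr. The immature call to 5dpr was kept in 3 of 8 fits that left out a replicate. With a covariate for muscle, the values to 2dpr were 0.25 and 0.59 and not called at either age. Adam19 rose to 2dpr by 0.79 (SE 0.20, adjusted p = 0.00145) and 0.88 (SE 0.20, adjusted p = 0.000475).

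Among the ADAMs without an active protease site, which bind other surface proteins, Adam23 peaked at 5dpr. It was at 10.0, 11.3, 12.8 and 9.06 CPM at 2dpr, 20.0, 22.8, 32.8 and 20.3 CPM at 5dpr and 16.6, 9.02, 14.8 and 10.8 CPM at 14dpr in immature mice. The mature libraries were at 13.1, 13.9, 8.22 and 15.5, at 28.0, 32.9 and 23.0 and at 15.3, 19.9, 13.8 and 16.0 CPM. On the log2 scale, the change from 5 to 14dpr was -0.91 (SE 0.22, adjusted p = 0.0143) and -0.78 (SE 0.23, adjusted p = 0.0475), and Adam23 was the 1 member that fell over this interval at either age. These calls were kept in 5 of 8 and in 1 of 7 fits that left out a replicate. Adam22 fell from 0 to 2dpr, at -1.11 (SE 0.27, adjusted p = 0.00120) and -1.41 (SE 0.27, adjusted p = 4.52e-05), and was not called with the muscle score as a covariate. The 6 testis-type ADAMs lay at or below 6 CPM in every library.

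The proteoglycanases of the ADAMTS family cut aggrecan and versican. Adamts4 (ENSMUSG00000006403, chr1:171250421-171260637) was at 0.800, 2.89, 3.18 and 2.78 CPM at baseline, 13.9, 11.6, 11.0 and 8.21 CPM at 0dpr and 49.0, 43.9, 55.7 and 57.4 CPM at 2dpr in immature mice. Libraries of mature mice were correspondingly at 5.34, 2.93, 3.45 and 2.58, at 2.67, 4.24, 4.10 and 6.25 and at 56.4, 72.5, 59.3 and 49.9 CPM. Thus at 0dpr the immature libraries lay above all immature baseline libraries, while the mature ones overlapped theirs. Expressed as log2, the fold change to 0dpr was 2.20 (SE 0.30, adjusted p = 3.69e-05) and 0.28 (SE 0.31, adjusted p = 0.563), and to 2dpr it was 2.20 (SE 0.26, adjusted p = 1.59e-08) and 3.78 (SE 0.29, adjusted p = 6.2e-13). The interaction of age with the change from 0 to 2dpr was -1.57 (SE 0.38, adjusted p = 0.117). Adamts1 also rose to 0dpr at both ages, by 1.08 (SE 0.19, adjusted p = 0.000613) and 0.64 (SE 0.19, adjusted p = 0.0113). Adamts5 rose from baseline to 14dpr by 0.84 (SE 0.19, adjusted p = 0.000802) and 1.21 (SE 0.19, adjusted p = 6.05e-06).

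Adamts15, a further versican-cleaving enzyme, was at 13.8, 6.08, 6.58 and 10.9 CPM at baseline, 32.5, 51.6, 42.0 and 31.0 CPM at 5dpr and 107, 52.7, 115 and 77.5 CPM at 14dpr in immature mice. In mature mice it was at 5.45, 8.21, 6.70 and 7.63, at 24.9, 71.6 and 36.7 and at 115, 81.9, 81.3 and 98.4 CPM. From baseline to 14dpr, the log2 fold change was 3.23 (SE 0.33, adjusted p = 1.45e-09) and 3.74 (SE 0.34, adjusted p = 6.9e-11). Adamts20 fell from 0 to 2dpr, at -1.73 (SE 0.26, adjusted p = 1.08e-06) and -1.39 (SE 0.26, adjusted p = 3.42e-05), calls that the muscle score as a covariate removed. Adamts9 rose from 0 to 2dpr in mature mice, by 1.31 (SE 0.20, adjusted p = 8.52e-07), and its value in immature mice, 0.13 (SE 0.19, adjusted p = 0.613), did not pass. Adamts8 rose from baseline to 0dpr in mature mice, by 1.81 (SE 0.52, adjusted p = 0.0105). In immature mice it was 1.18 (SE 0.48, adjusted p = 0.108), and adjusted p = 0.0339 without mature 2dpr replicate 3 in the fit.

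The 3 procollagen N-propeptidases, which trim fibrillar procollagens before they assemble, all rose from baseline to 14dpr at both ages. Adamts2 (ENSMUSG00000036545, chr11:50602084-50807573) was at 129, 123, 105 and 125 CPM at 2dpr and 292, 246, 295 and 321 CPM at 14dpr in immature mice, and at 73.9, 87.1, 65.3 and 58.1 and 333, 284, 290.1 and 277 CPM in mature mice. Its rise from 2 to 5dpr was 0.81 (SE 0.16, adjusted p = 0.000946) and 1.53 (SE 0.17, adjusted p = 8.66e-08). Adamts14 rose earlier, with ranges of 6.65 to 9.41 CPM at 0dpr and 26.5 to 34.4 CPM at 2dpr in immature mice, by 1.99 (SE 0.29, adjusted p = 8.34e-07), and by 1.88 (SE 0.30, adjusted p = 2.57e-06) in mature mice. Adamts3 rose from baseline to 14dpr by 1.12 (SE 0.32, adjusted p = 0.00590) and 1.80 (SE 0.32, adjusted p = 3e-05). Adamts7 and Adamts12, which cut cartilage oligomeric matrix protein, rose from baseline to 14dpr as well. For Adamts12, which ranged over 19.9 to 34.8 CPM at baseline and 51.9 to 78.1 CPM at 14dpr in immature mice, the log2 fold change was 1.27 (SE 0.17, adjusted p = 2.61e-07), and it was 2.14 (SE 0.17, adjusted p = 7.08e-12) in mature mice. For Adamts7, it was 2.57 (SE 0.48, adjusted p = 6.52e-05) and 2.99 (SE 0.49, adjusted p = 7.79e-06).

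Adamts16 (ENSMUSG00000049538, chr13:70727802-70841811), an ADAMTS enzyme of little-known substrates, was nearly absent before resection. It had 0, 0, 0 and 1 reads at baseline and 118, 93, 149 and 65 reads at 14dpr in immature mice, and 3, 3, 1 and 0 and 283, 110, 189 and 179 reads in mature mice. No fold is given against baseline counts this low. It was at 3.49, 3.88, 6.25 and 4.77 CPM at 5dpr in immature and 4.23, 3.50 and 5.68 CPM in mature mice. The rise from 5 to 14dpr passed in mature mice, at 2.27 (SE 0.46, adjusted p = 0.00218), and not in immature mice, at 1.33 (SE 0.40, adjusted p = 0.0634), where it passed without mature 2dpr replicate 3 in the fit (adjusted p = 0.0246). Adamts17 rose from 5 to 14dpr in mature mice, by 2.30 (SE 0.56, adjusted p = 0.0129), with ranges of 2.59 to 2.84 CPM at 5dpr and 10.3 to 15.4 CPM at 14dpr. That call was kept in 4 of 7 fits that left out a replicate. In immature mice, the value for Adamts17 was 1.03 (SE 0.48, adjusted p = 0.315), which did not pass although the stages did not overlap. Adamts18 was at 0.685, 1.44, 1.59 and 0.574 CPM at baseline and 5.97, 5.17, 5.21 and 6.59 CPM at 14dpr in immature mice, which did not overlap, a change of 2.41 (SE 0.56, adjusted p = 0.000976). In mature mice, it was 0.51 (SE 0.52, adjusted p = 0.503), which did not pass, and the difference between the ages in this change was not tested. Adamts19 rose from baseline to 14dpr, with 0, 0, 9 and 0 and 85, 25, 63 and 19 reads in immature and 6, 2, 3 and 0 and 78, 25, 44 and 71 reads in mature mice. Adamts13, the von Willebrand factor protease, passed in no comparison of stages. Among the ADAMTS-like genes, Adamtsl1 rose from baseline to 14dpr, by 1.25 (SE 0.25, adjusted p = 0.000128) and 1.83 (SE 0.25, adjusted p = 4.44e-07), while Adamtsl3 fell from 0 to 2dpr, at -0.87 (SE 0.20, adjusted p = 0.000670) and -0.53 (SE 0.20, adjusted p = 0.0285). The mature call of Adamtsl3 was kept in 4 of 8 fits that left out a replicate, and its mature libraries overlapped between these stages.

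**Figure D4:**
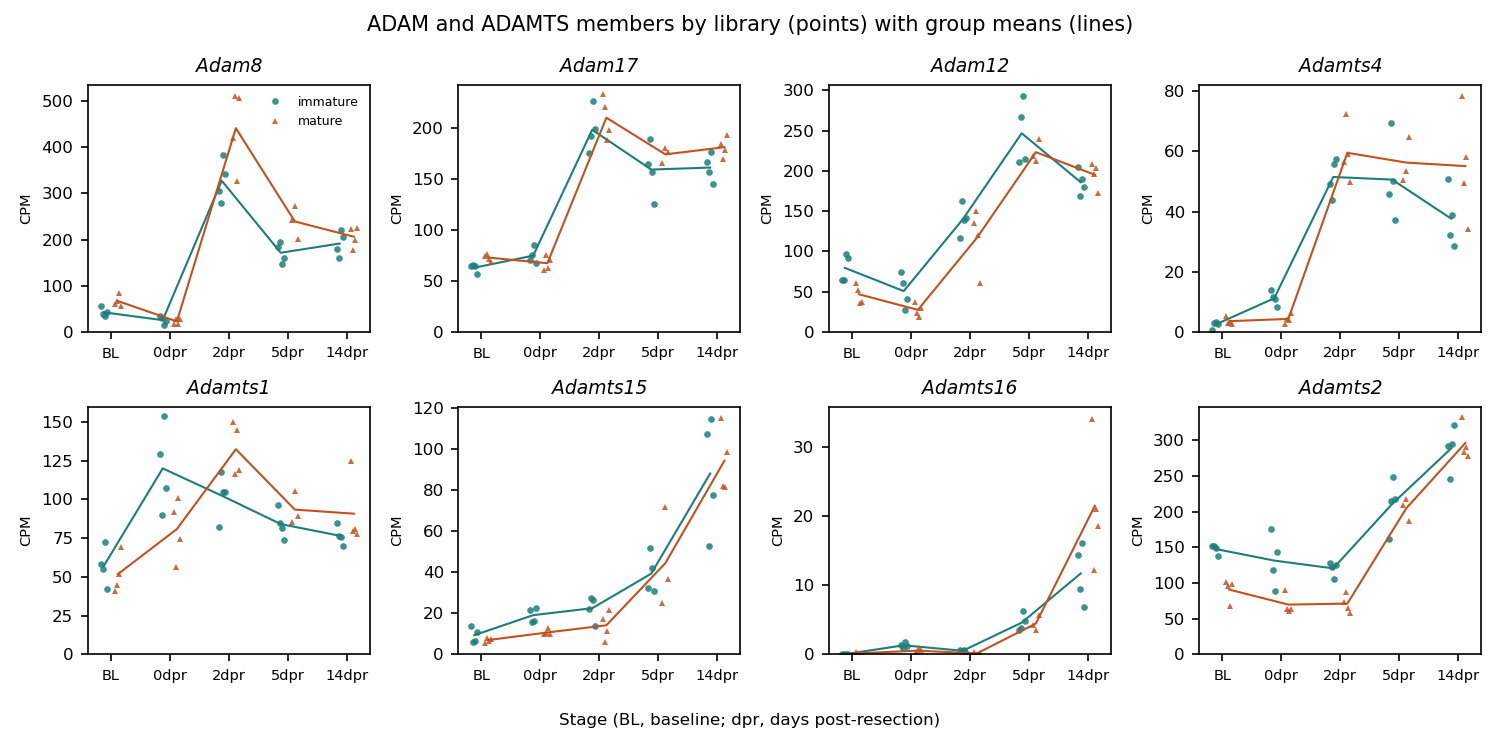
Level of 8 ADAM and ADAMTS genes in CPM (y axis) in each library of immature (circles) and mature mice (triangles) at baseline (BL) and at 0, 2, 5, and 14dpr (x axis), with lines through the group means. Adam8, Adam17 and Adamts4 are higher from 2dpr on, Adamts15, Adamts16 and Adamts2 are highest at 14dpr, and the 0dpr libraries of Adamts1 lie above its baseline in immature mice.

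Between the ages, 3 members at baseline, 8 at 0dpr and 3 at 2dpr were higher in immature mice, where 0.358%, 0.571% and 0.457% of all genes were. No member was lower in immature mice at any stage. At 5dpr and at 14dpr, 0 members differed by edgeR (13 and 10 had an unadjusted p under 0.05, and DESeq2 also called 0), where 0% and 0.00943% of all genes differed. The median log2 fold change of the members at 0dpr was 0.47, against -0.02 over all genes. The labels do not say that libraries with the same replicate number belong together. At 0dpr, the deviations from group means of such libraries of the 2 ages correlated at 0.109 to 0.207. A fit with a block for the replicate number, over the libraries of all stages, also called 8 members at 0dpr, which is not a paired test of animals.

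Adamtsl2 (ENSMUSG00000036040, chr2:27079379-27108981), a secreted protein that binds microfibrils, had the largest difference at baseline and at 0dpr. It was at 6.97, 4.54, 10.7 and 19.2 CPM in immature and 1.89, 2.77, 1.08 and 2.13 CPM in mature mice at baseline, and at 22.9, 6.53, 7.01 and 10.2 and 3.61, 1.62, 2.33 and 1.81 CPM at 0dpr. The ages did not overlap at either stage. The log2 fold change of immature over mature was 2.39 (SE 0.48, adjusted p = 0.0107) at baseline and 2.31 (SE 0.48, adjusted p = 0.0101) at 0dpr. Timp1 was at 35.2, 48.7, 49.9 and 44.7 CPM in immature and 19.6, 15.6, 17.5 and 23.8 CPM in mature mice at baseline, which gave a log2 fold change of 1.22 (SE 0.28, adjusted p = 0.0305). At 0dpr, it was 1.31 (SE 0.30, adjusted p = 0.0270), with 1 immature library below the highest mature one. Adamts2 passed at 3 stages, with 152, 151, 149 and 138 CPM in immature and 101, 95.1, 68.1 and 98.6 CPM in mature mice at baseline. Its log2 fold change was 0.70 (SE 0.16, adjusted p = 0.0265) at baseline, 0.91 (SE 0.16, adjusted p = 0.00184) at 0dpr and 0.76 (SE 0.16, adjusted p = 0.0157) at 2dpr.

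At 0dpr, Mmp2 was at 409, 330.0, 201 and 311 CPM in immature and 166, 127, 140.3 and 179 CPM in mature mice, which gave a log2 fold change of 1.03 (SE 0.17, adjusted p = 0.000721). Mmp14 was at 182, 121, 59.7 and 98.8 and 49.3, 56.4, 48.3 and 65.7 CPM, a log2 fold change of 1.07 (SE 0.19, adjusted p = 0.00184), and 1 immature library lay within the mature range. Adamts4 differed by 1.36 (SE 0.29, adjusted p = 0.0111), with every immature library above the mature ones. The others at 0dpr were Adamts12, at 0.95 (SE 0.17, adjusted p = 0.00184), and Adamts10, a microfibril-associated enzyme, at 0.63 (SE 0.15, adjusted p = 0.0302). At 2dpr, Mmp23 was at 34.2, 20.7, 23.7 and 32.9 CPM in immature and 18.5, 15.6, 6.22 and 13.7 CPM in mature mice, which gave a log2 fold change of 1.04 (SE 0.20, adjusted p = 0.00721). Adamts17 was at 1.88, 3.49, 1.68 and 2.44 and 0, 0.780, 0 and 0.324 CPM, a log2 fold change of 2.97 (SE 0.64, adjusted p = 0.0173). The size of that fold is uncertain, since the mature libraries lie at or near 0 CPM. These 2 genes and Adamts2 did not overlap between the ages at 2dpr, and they were also called without mature 2dpr replicate 3.

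These calls rested on the model of all libraries. A model of just the 8 libraries at 1 stage called 0 members at 0dpr and at 2dpr and 4 at baseline. Without immature 2dpr replicate 4 no member was called at 2dpr, without mature baseline replicate 3 none at baseline, and without immature 0dpr replicate 1 or mature 0dpr replicate 2, 4 and 5 were called at 0dpr. Shares over all genes are not given for these fits with fewer libraries. The counts therefore do not show whether members lost calls more than other genes. At 0dpr, Mmp2, Mmp14, Adamts2 and Adamts12 were kept in 8 of 8 fits that left out a replicate, Adamts4 and Adamtsl2 in 6, Timp1 in 5 and Adamts10 in 4. At baseline, Timp1 was kept in 2 of 8, Adamts2 in 3 and Adamtsl2 in 6. At 2dpr, Adamts2 was kept in 5 of 8, Adamts17 in 6 and Mmp23 in 7. Marker sums at 0dpr overlapped between the ages for muscle, as given above, and for 6 osteoclast genes (223 to 749.9 CPM in immature, 367 to 496 CPM in mature mice). The 5 fibroblast genes were at 1877 to 2732 CPM in immature and 1428 to 2045 CPM in mature mice. At baseline, where Timp1, Adamts2 and Adamtsl2 were called, they did not overlap, at 1854 to 2145 CPM in immature and 1093 to 1780.3 CPM in mature mice, and their part in the age differences was not tested.

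**Figure D5:**
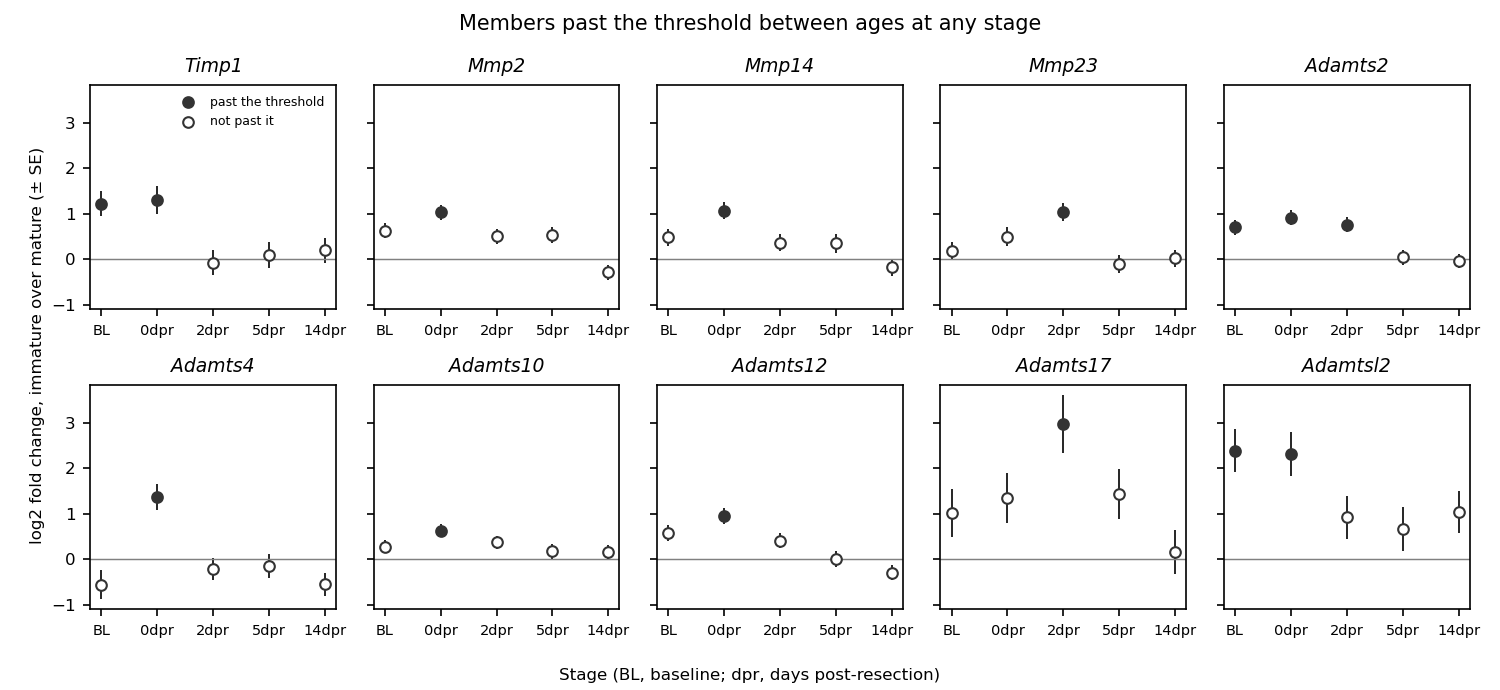
Log2 fold change of immature over mature mice (y axis, with standard error) at baseline (BL) and at 0, 2, 5, and 14dpr (x axis) for the 10 members that passed between the ages at any stage. Filled symbols passed an adjusted p of 0.05, and all of them lie above 0 and at baseline, 0dpr or 2dpr.

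The interaction of age with the change between stages was tested for 3 intervals. It was not tested from baseline to 0dpr or from baseline to 14dpr, so that a call at 1 age only over those intervals is no test of age. From 0 to 2dpr, 0 members passed (15 had an unadjusted p under 0.05), where 0.0613% of all genes did, and from 2 to 5dpr and from 5 to 14dpr, 0 members passed (8 and 3 unadjusted), where 0% and 0% of all genes did. DESeq2 called Adamts4 (-1.59, adjusted p = 0.0120) and Adamts9 (-1.20, adjusted p = 0.0215) from 0 to 2dpr and Mmp23 (-1.10, adjusted p = 0.0373) from 2 to 5dpr, with negative values for a smaller rise in immature mice. By edgeR, the interaction was -1.18 (SE 0.27, adjusted p = 0.101) for Adamts9 and -1.14 (SE 0.28, adjusted p = 0.196) for Mmp23. For Timp1, the interaction was -1.38 (SE 0.41, adjusted p = 0.207).

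Of 16 genes that activate or restrain these enzymes, the immature animals had 9 called as higher and 4 as lower at 2 than at 0dpr and the mature ones 10 and 4, against 21.8% and 22.2% of all genes and 22.7% and 24.9% respectively. Plau, which encodes urokinase and starts the plasmin cascade that activates pro-MMPs, rose by a log2 fold change of 3.17 and 2.36. Reck, a membrane inhibitor of MMPs, fell by 1.40 and 1.61 on the log2 scale. Of 10 proteoglycans and glycoproteins that serve as substrates, 9 rose in immature and 10 in mature mice from baseline to 14dpr, where 16.4% and 17.1% of all genes did, among them the versican gene Vcan, with a log2 fold change of 2.96 and 3.82. Of 7 genes of AP-1 subunits, rises from baseline to 0dpr were called in 4 in immature mice, and 3 rises and 1 fall in mature mice, where 5.98% of all genes rose in immature and 11.9% rose and 10.6% fell in mature mice. Fosl1 rose from 0 to 2dpr by 5.79 and 6.11, while Fosb fell by 2.75 and 2.07 on the log2 scale.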

How the data were processed

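RNAseq libraries were made by the study from whole, ground rib pieces with a stranded kit and sequenced in several runs, which the sources used here do not assign to libraries, and effects of the run were not tested. The authors deposited a table of counts per gene, a filtered table of 21204 genes, and CPM (counts scaled to library totals by TMM), a signal that edgeR's TMM CPM matched within a relative difference of 4.99e-15. Per the submitters' processing notes, reads were aligned to GRCm38 with STAR 2.5.2a, and the rule of the filter is not given in the sources used here. Of the 40 samples, 39 had a column, while replicate 2 of mature mice at 5dpr is not analysed here. No libraries of a group agreed within sampling noise (smallest ratio of squared difference to counting variance 201.8).

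The counts were fitted with edgeR 4.0.16 (R 4.3.3, limma 3.58.1), using TMM, 1 mean per group over all 39 libraries and the quasi-likelihood test. P-values were adjusted by Benjamini-Hochberg over all 21204 genes, with a threshold of 0.05. Alternatives were DESeq2 1.42.0, its size factors (RLE), other filters on low counts, a replicate block, a muscle score of 12 genes as covariate, only the libraries compared, and each replicate left out. The fit without mature 2dpr replicate 3 in all comparisons was added after seeing the data. Exon lengths came from GENCODE vM21. The replicate block used the replicate number over all libraries, and the labels do not tie libraries of the same number to each other. Between the ages at 0dpr, the lowest of 4 correlations of deviations from group means was 0.109. The members and lists were chosen with earlier results of these data known. Named members were a set of 24, the 5 largest changes per direction in each comparison of stages (mean of at least 1 CPM, groups not overlapping), and all calls between ages. Adam1a, Adam3, Adam4, Adam11, Adam21, Adamts3, Adamts7, Adamts13, Adamtsl1, Adamtsl3, Mmp11 and Mmp17 were named after their values were seen.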

Additional observations from a re-analysis of the deposited data

Results flagged for a closer look

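A library was singled out where its gap to the nearest of the other 3 libraries of its group, over the group's range, passed Dixon's critical value for 4 samples. Of 214 groups tested over 24 members, 15 were singled out, and chance alone singles out about 1 in 20 groups. High values were 438 CPM for Mmp2 in immature baseline replicate 4, 120.4 CPM for Mmp8 in immature 5dpr replicate 5, 277 CPM for Mmp8 in mature baseline replicate 3, and 275 CPM for Timp1 in immature 2dpr replicate 3. Timp4 stood at 40.1 CPM in immature 0dpr replicate 4, Adamts1 at 125 CPM in mature 14dpr replicate 1, Adamts2 at 90.8 CPM in mature 0dpr replicate 1, Mmp16 at 10.1 CPM in mature 0dpr replicate 2, and Adamts5 at 73.5 CPM in immature 5dpr replicate 3 and 61.6 CPM in mature baseline replicate 4. For Mmp10, 1 library held reads where its group had none, at 0.123 CPM in immature 0dpr replicate 2 and 0.0838 CPM in mature baseline replicate 2. Values below the rest of the group were 321 CPM for Mmp9 in mature baseline replicate 4, 0.800 CPM for Adamts4 in immature baseline replicate 2 and 56.9 CPM for Adam17 in immature baseline replicate 6.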

How the results depend on the processing

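The counts of members called from baseline to 14dpr stayed within 1.5 times the main count under every alternative. With a muscle score as covariate, 7 members instead of 14 were called from baseline to 0dpr and 14 instead of 34 from 0 to 2dpr in immature mice, and 1 instead of 19, 12 instead of 42 and, from 2 to 5dpr, 16 instead of 25 in mature mice. With only the libraries compared, the counts were 0 from baseline to 0dpr and 19 instead of 8 from 5 to 14dpr in immature mice, 27 from 0 to 2dpr and 9 from 2 to 5dpr in mature mice, and 0 between the ages at 0dpr and at 2dpr. DESeq2 called 6 instead of 3 members between the ages at baseline, and 2 and 1 instead of 0 in the interactions from 0 to 2dpr and from 2 to 5dpr. The replicate block gave 8 instead of 14 members from baseline to 0dpr in immature mice, although the labels do not tie libraries of the same replicate number to each other. The causes were not tested. Calls over all genes are given above for the muscle score from baseline to 0dpr and from 0 to 2dpr. The other counts under these alternatives have no background here. The 1 call that reversed was that of Mmp16 from baseline to 14dpr in immature mice, at -0.047 with the muscle score.

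With 1 replicate left out, the counts from baseline to 0dpr were 6 to 17 in immature mice (8 without baseline replicate 2 or 6, 6 without 0dpr replicate 3) and 12 to 22 in mature mice (12 without 0dpr replicate 3). From 2 to 5dpr in mature mice they were 16 to 24 (16 without 5dpr replicate 3). From 5 to 14dpr they were 5 to 10 in immature mice (5 without 14dpr replicate 3 or 5dpr replicate 2 or 4) and 5 to 14 in mature mice (6, 7 and 5 without 5dpr replicates 1, 3 and 4). Between the ages they were 0 to 5 at baseline (0 without mature baseline replicate 3, 1 without mature replicate 2 or immature replicate 3, 4 or 6, and 5 without mature baseline replicate 4 or mature 2dpr replicate 3), 4 to 11 at 0dpr and 0 to 3 at 2dpr. The interaction from 0 to 2dpr had 0 to 1, the 1 being Adamts9 without immature 0dpr replicate 2. Shares over all genes are not given for the fits with 1 replicate left out, so that their counts have no background.

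Of 185 calls of named members, 185 were kept by DESeq2, 184 with RLE size factors, 184 with filterByExpr, 179 with all genes, 167 with the replicate block, 152 with only the libraries compared and 124 with the muscle score. Part of these calls were named for a large change without overlap in the same data, which favors their being kept. Calls outside the naming rule, among them weaker ones, are not counted here. RLE size factors moved the median of all genes from 0 to 2dpr to -0.13 at both ages, from -0.04 in immature and -0.05 in mature mice. Depth limits the members with few reads, such as Mmp10, Adamts16 at baseline and the testis-type ADAMs.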

Other observations

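Other cell type genes of the pieces also moved with stage. The summed level of 6 chondrocyte genes was 32.7 to 73.0 CPM at baseline and 603 to 2898 CPM at 14dpr in immature mice, and 41.1 to 70.2 and 119 to 2774 CPM in mature mice. These ranges at 14dpr overlapped between the ages.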
